A study of Mus musculus with 3 samples.

Results

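Peaks of AGO2-bound RNA were described for 6 genes of the LIN28 and let-7 circuit, Lin28a, Trim71, Igf2bp1, Mirlet7c-1, Mirlet7c-2 and Mirlet7e. These genes were selected on their peaks. Lin28a, the let-7 targets Trim71 and Igf2bp1, and 3 of the 4 let-7 genes holding peaks were taken. Mirlet7a-2, with a peak in 1 list, is not among them. Each peak whose midpoint fell within the mm10 RefSeq span of one of the 6 genes was counted, on either strand. The 6 genes stand among 2583 RefSeq genes with a peak and 49997 genes with a span, and they hold 50 of 6911 peaks. As the presence of peaks chose them, their peak counts are a description and were not tested.

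The study had 1 group of 3 libraries, all HITS-CLIP of AGO2 with the antibody clone 2D4 in P19, a stem-cell-like line of mouse embryonal carcinoma. The labels name no control library, genotype or treatment, and do not say whether the libraries came from separate cultures. AGO2 is the Argonaute protein that carries microRNAs to their targets, and HITS-CLIP sequences the RNA fragments crosslinked to it. Peaks came from 4 callers, CIMS with 169 peaks, Piranha with 1417, Pyicoclip with 2068 and PIPE-CLIP with 3257. Each list covers the libraries together. Depth per library is therefore unknown, the spread over libraries cannot be computed, and the lists are not replicates of one another.

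LIN28A is an RNA-binding protein with a cold-shock domain and zinc knuckles. It binds the let-7 precursor, blocks its cleavage by Dicer and recruits uridylyl transferases to it, so that mature let-7 is kept low in pluripotent cells. Mature let-7 in turn represses the mRNAs of Lin28a, of Trim71 (also called Lin41, a ubiquitin ligase and mRNA repressor of early embryos) and of Igf2bp1 (an RNA-binding protein that stabilises and localises mRNAs). AGO2 CLIP can recover both sides of this circuit, the loaded microRNA at its own gene and the target mRNA. Matches to the let-7 seed were not looked for under the mRNA peaks. Which microRNA brought AGO2 to them is therefore not known.

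The mature sequences are shown because the seed, bases 2 to 8 and in capitals here, is what a let-7 microRNA pairs with in its targets. They were taken from RefSeq on GRCm38.p6, 5′ to 3′. The let-7c and let-7e strands are products of the 3 microRNA members, let-7a-5p lies in the hairpin of Mirlet7a-2, another let-7 gene with a peak, and the miR-99 strands come from microRNA genes beside the members.
let-7c-5p: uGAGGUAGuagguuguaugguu
let-7e-5p: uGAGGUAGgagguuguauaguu
let-7a-5p: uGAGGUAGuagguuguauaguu
miR-99a-5p: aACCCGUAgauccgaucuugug
miR-99b-5p: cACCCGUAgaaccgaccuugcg

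The seed GAGGUAG was carried by mature strands of 13 genes in the table, with 11 distinct sequences among them. Counted from 1 at the 5′ end, let-7e-5p differs from let-7c-5p by U9G and G19A, both outside the seed, and let-7a-5p differs from let-7c-5p by G19A alone. Mirlet7c-1 and Mirlet7c-2 encode the same mature let-7c-5p, and the longest run around it that the hairpins share is 23 nt. A fragment within that run cannot be assigned to either gene. The neighbours carry another seed, ACCCGUA, shared by miR-99a-5p and miR-99b-5p.

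The hairpins are printed next with the bases under the Pyicoclip peak in capitals, to show which arm was covered. Mirlet7c-1 lies at chr16:77599657-77599750, Mirlet7c-2 at chr15:85706603-85706697, Mirlet7e at chr17:17830352-17830444 and Mirlet7a-2 at chr9:41536716-41536811, all on the plus strand of mm10. Mirlet7c-2 lies within the span of the long non-coding RNA gene Lncppara, and Mirlet7e within that of the protein-coding gene Spaca6.
Mirlet7c-1: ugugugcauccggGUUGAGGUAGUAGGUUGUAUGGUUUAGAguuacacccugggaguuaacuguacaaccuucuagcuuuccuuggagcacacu
Mirlet7c-2: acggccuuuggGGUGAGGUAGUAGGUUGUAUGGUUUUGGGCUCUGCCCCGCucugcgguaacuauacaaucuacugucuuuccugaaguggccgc
Mirlet7e: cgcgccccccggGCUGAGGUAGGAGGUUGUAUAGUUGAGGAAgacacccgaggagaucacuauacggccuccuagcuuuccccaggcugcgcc
Mirlet7a-2: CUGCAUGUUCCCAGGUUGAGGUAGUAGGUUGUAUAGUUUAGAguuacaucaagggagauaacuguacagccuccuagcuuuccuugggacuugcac

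In the 3 let-7 members, every peak lay over the 5p arm and reached no base of the 3p arm. Each gene held 1 Piranha and 1 Pyicoclip peak on the plus strand, the strand of the gene, and no CIMS or PIPE-CLIP peak. The Pyicoclip peak of Mirlet7c-1 was 28 nt wide, at chr16:77599670-77599697, that of Mirlet7e 30 nt, at chr17:17830364-17830393, and that of Mirlet7c-2 40 nt, at chr15:85706614-85706653. All 3 covered the whole 22 nt of the mature 5p strand and began 2 nt before it. They ended 4 nt after the mature strand in Mirlet7c-1, 6 nt after it in Mirlet7e and 16 nt after it in Mirlet7c-2, where the peak ran into the loop.

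The Piranha peaks were 20 nt wide and lay further upstream. They covered 15 nt of the mature 5p strand in Mirlet7e, 9 nt in Mirlet7c-1 and 5 nt in Mirlet7c-2. All 1417 Piranha peaks began on a fixed grid of 20 nt, so the edges of this list are placed no more finely than that. By the midpoint of the peak, 4 of the 6 peaks lay in the 5p arm and 2 Piranha peaks lay before it.

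The same placement was common among other microRNA genes. Of 41 stranded Pyicoclip peaks over mature strands of 37 other microRNA genes, 38 covered the whole mature strand and 20 began exactly 2 nt before it. The arm was less uniform in the lists as a whole. Among Pyicoclip peaks in microRNA genes with both arms in the table, 26 of 41 lay mostly on the 5p and 15 on the 3p arm, the let-7 members included.

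**Figure D1:**
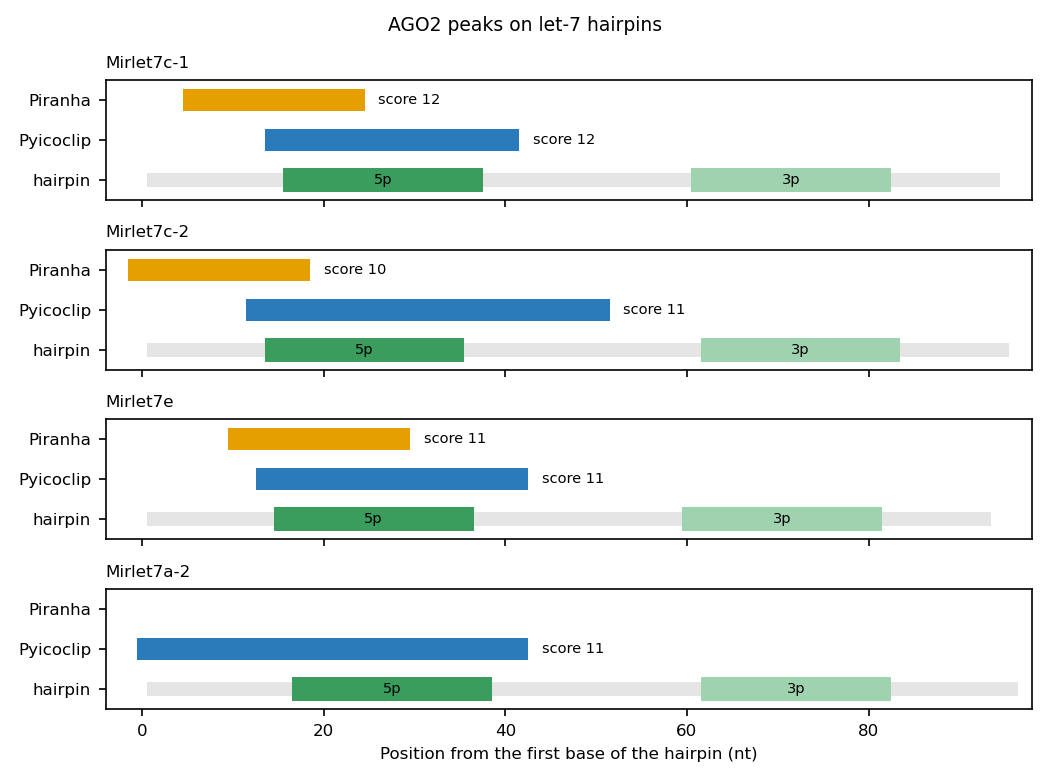
Peaks on 4 let-7 hairpins, with position from the first hairpin base in nt on the horizontal axis; green blocks are the mature 5p and 3p arms, and bars are Piranha and Pyicoclip peaks with their scores. Every peak overlaps the 5p arm and none reaches the 3p arm, and Mirlet7a-2 has a Pyicoclip peak only.

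Scores at the let-7 genes lay between the lowest value and the median of their lists. The authors gave each peak a score, whose unit is not stated, and no list holds a score below 10. The median over all peaks was 12 in Piranha and 12 in Pyicoclip. Mirlet7c-1 scored 12 in Piranha and 12 in Pyicoclip, Mirlet7e 11 and 11, and Mirlet7c-2 10 and 11. In the same lists the median over peaks in other microRNA genes was 13. Among peaks in microRNA genes, the highest score in Piranha was 30, in Mir181a-1, which also scored 30 in Pyicoclip. Of the microRNA genes, only Mir6236 scored above that in Pyicoclip, with 3 nested intervals of score 151. Of those other peaks, 14 of 35 in Piranha and 22 of 53 in Pyicoclip also scored under 13, so such scores also occurred at many other microRNA genes.

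Of the 12 let-7 family genes listed, 4 held a peak. The fourth, Mirlet7a-2, held a single Pyicoclip peak of score 11 with no strand, at chr9:41536715-41536757, which covered its 5p arm and the bases before it. It stands just outside the group described, with 1 list against 2 for each let-7 member. Mirlet7a-1, Mirlet7b, Mirlet7d, Mirlet7f-1, Mirlet7f-2, Mirlet7g, Mirlet7i and Mir98 held none. Mirlet7a-1 shares let-7a-5p with Mirlet7a-2, and Mirlet7f-1 shares let-7f-5p with Mirlet7f-2. A fragment within such a shared strand cannot be assigned to either gene. For comparison, a peak was present in 4.07% of the 1228 annotated microRNA genes in Pyicoclip, 3.01% in Piranha, 0.651% in PIPE-CLIP and 0.163% in CIMS, and in 4.23% for any list. The PIPE-CLIP share was 0.699% for microRNA genes on the plus strand and 0.600% for those on the minus strand, so most other microRNA genes had no PIPE-CLIP cluster either.

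The 3 let-7 members lie in known clusters with other microRNA genes, and some of these neighbours held a listed peak. Mir99a, 656 nt from Mirlet7c-1, held a Pyicoclip peak of score 11. Mir99b, 94 nt from Mirlet7e, held one of score 10, the lowest score in that list. With peaks this near the lowest score, presence against absence does not show a difference in recovery. No peak was listed at Mir125a, 367 nt from Mirlet7e, or at Mirlet7b, 621 nt from Mirlet7c-2. The wider list of let-7 cluster partners, Mir99a, Mir99b, Mir100, Mir125a, Mir125b-1 and Mir125b-2, had 2 of 6 genes with a peak, in 1 list each.

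The protein-coding members gave wider peaks over all lists, on the minus strand where a strand was given. Their 44 peaks had a median width of 151.5 nt, against 24 nt for the 6 let-7 peaks, but the callers behind these medians differ. In Pyicoclip the median was 191.5 nt against 30 nt, while in Piranha it was 20 nt in both groups. PIPE-CLIP, with a median width of 85 nt over all its clusters, gave no let-7 peak. Of the 44, 40 were on the minus strand, 4 had no strand and none was on the plus strand. Lin28a and Trim71 are minus-strand genes and the let-7 members plus-strand genes. The stranded peaks of these genes thus lay on the strand of the gene. By list, CIMS gave 1 of these peaks, Piranha 2, Pyicoclip 12 and PIPE-CLIP 29.

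Lin28a spans chr4:134003330-134019196 on the minus strand. It was the only member present in all 4 lists, with 1 CIMS, 1 Piranha, 4 Pyicoclip and 6 PIPE-CLIP peaks, which merged into 6 sites. Site numbers here count from the 3′ end of the gene. Site 1, chr4:134003349-134003790, held a PIPE-CLIP cluster of score 133 and 2 nested Pyicoclip peaks, of scores 43 and 14. Site 3, chr4:134004123-134004705, held peaks of all 4 callers, with scores of 144 in PIPE-CLIP, 25 in Pyicoclip, 21 in CIMS and 13 in Piranha.

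Site 1 and the site shared by all callers had the highest scores in the gene, and their clusters ranked 15 and 14 by score among the 3257 of PIPE-CLIP. Site 4, chr4:134004795-134005018, scored 50 in PIPE-CLIP and 24 in Pyicoclip. Sites 2, 5 and 6 were found by PIPE-CLIP alone, with scores of 23, 28 and 13. The CIMS peak stood lower in its own list, at the 44.7 percentile, and the Piranha peak at the 63.4 percentile.

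Trim71 spans chr9:114511268-114564369 on the minus strand. It held 11 peaks at 7 sites. PIPE-CLIP gave 7 of them, Pyicoclip 3, Piranha 1 and CIMS none. Its best-scoring site, chr9:114512089-114512286, had identical borders in PIPE-CLIP, where it scored 43, and in Pyicoclip, where it scored 13. The site at chr9:114511426-114511586 scored 30 and 17 in the same lists, and the site at chr9:114511269-114511349 scored 25 and 11.

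Piranha and PIPE-CLIP shared a further Trim71 site, chr9:114512541-114512798, with scores of 10 and 33. The other 3 sites were PIPE-CLIP clusters of scores 21, 10 and 15. Trim71 peaks were thus spread over several moderate sites, where Lin28a had 2 of very high score.

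Peaks also lay just outside the Trim71 span. Within 10 kb of it, 7 further peaks lay on the minus strand past its 3′ end, at 298.5 to 3188.5 nt from the span and in no annotated gene. They included a Pyicoclip peak and a PIPE-CLIP cluster at chr9:114507952-114508208, of scores 17 and 23, with a Piranha peak of score 11 inside. These were not counted for Trim71, and whether they belong to its transcript was not tested. No peak lay within 10 kb outside the Lin28a or Igf2bp1 span.

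Igf2bp1 spans chr11:95957163-96005944, and its strand is not given in the tables used. It held 21 peaks at 15 sites, 16 from PIPE-CLIP and 5 from Pyicoclip, and none from CIMS or Piranha. All 20 stranded peaks were on the minus strand. The PIPE-CLIP scores ran from 11 to 46 with a median of 22.5, and the Pyicoclip scores from 10 to 15. Each of the 5 Pyicoclip peaks overlapped a PIPE-CLIP cluster, and 10 sites were PIPE-CLIP clusters alone.

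The number of PIPE-CLIP clusters in Igf2bp1 was the highest of the 1560 protein-coding genes with a cluster, for which the median was 1. Peg10 and Slc2a3 followed with 15 each, Plekhm1, Cnot6 and Pmepa1 with 14 each and Msi2 with 13, so the count was close to that of other genes. In Pyicoclip, Igf2bp1 shared rank 8 of 995 genes with a peak. Its best cluster, chr11:95963185-95963372 with a score of 46, covered 81 nt of Mir3063, a microRNA gene at chr11:95963292-95963383 on the same strand, although its midpoint lay outside that gene. Within those 81 nt, the peak list does not tell reads of the mRNA from reads of this microRNA.

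**Figure D2:**
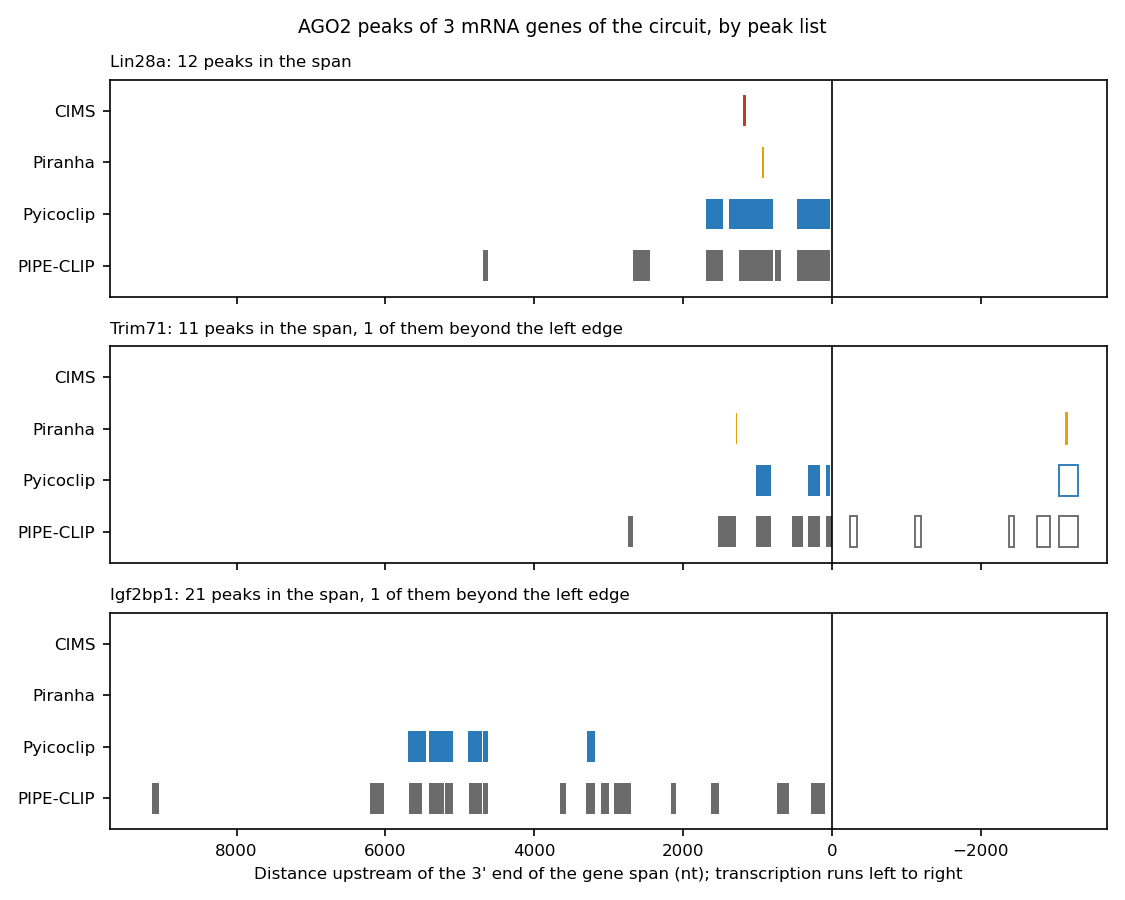
Peaks of Lin28a, Trim71 and Igf2bp1 by list, against the distance upstream of the 3′ end of the gene span in nt; filled bars are peaks in the span and open bars peaks past its end. Peaks crowd near the 3′ end in Lin28a and Trim71 and spread over about the last 6115.5 nt in Igf2bp1, and 1 PIPE-CLIP cluster each of Trim71 and Igf2bp1 lies beyond the left edge.

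Peaks of all 3 mRNA genes lay mostly towards the 3′ end of the span. As background, the microRNA target sites of an mRNA lie mostly in its 3′ untranslated region. Exons and untranslated regions were not used, so the part of the transcript under a peak is not stated. In Lin28a, 10 of 12 midpoints lay within 1577 nt of the 3′ end, and the others at 2556 and 4657.5 nt. In Trim71, 10 of 11 lay within 2704 nt, and the last at 29819 nt. In Igf2bp1, read in the direction of its peaks, 19 of 21 lay between 182.5 and 6115.5 nt, and the others at 9088.5 and 35372.5 nt.

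The last 10% of the span held 33 of the 44 peaks, 75% (95% Wilson interval 60.6 to 85.4). These were 10 of 12 in Lin28a, 10 of 11 in Trim71 and 13 of 21 in Igf2bp1, the last with its direction taken from the peaks themselves. Among peaks of other protein-coding genes of known strand, on the gene's strand or without one, the share was 41.2% (39.5 to 43.0, 1239 of 3005 peaks). By list, members against other genes, it was 20 of 29 against 42.9% in PIPE-CLIP and 10 of 12 against 41.4% in Pyicoclip. This difference was not tested. Several peaks come from 1 gene and often from 1 site, so the intervals are too narrow.

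Callers overlapped at some sites only. Over the 6 members, 15 of 31 sites held peaks of at least 2 lists. All 3 let-7 sites were shared, by Piranha and Pyicoclip. In the mRNA genes the shared sites numbered 3 of 6 in Lin28a, 4 of 7 in Trim71 and 5 of 15 in Igf2bp1, and each of the other 16 was a PIPE-CLIP cluster alone. As the lists come from the same libraries, a shared site is not an independent observation.

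Score ranks within the lists differed with the caller. Ranked within its own list, the median percentile of a peak was 91.4 in Lin28a, 80.5 in Trim71, 72.4 in Igf2bp1, 49.5 in Mirlet7c-1, 33.7 in Mirlet7e and 22.7 in Mirlet7c-2. Trim71 and Igf2bp1 overlapped widely, with percentiles from 7.06 to 96.8 and from 12.1 to 97.3. Lin28a ran from 43.8 to 99.6. PIPE-CLIP gave 29 of the 44 mRNA peaks and none of the let-7 peaks. In the lists that both kinds of gene share, this order held only in part. In Pyicoclip the median percentile was 91.7 in Lin28a, 58.7 in Trim71, 47.7 in Mirlet7c-1 and 32.7 in each of Igf2bp1, Mirlet7c-2 and Mirlet7e. In Piranha the single peak of Lin28a stood at 63.4, above those of the let-7 genes. The single peak of Trim71 stood at 12.6, level with Mirlet7c-2 and below Mirlet7e at 34.7 and Mirlet7c-1 at 51.2.

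**Figure D3:**
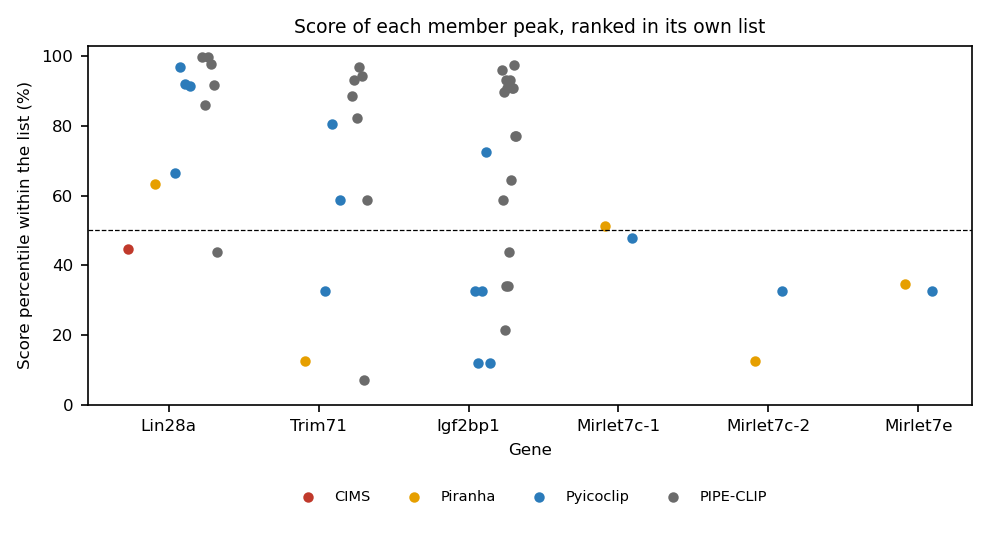
Score percentile of each peak within its own list, on the vertical axis in percent, by gene and coloured by list; the dashed line marks the list median. PIPE-CLIP clusters of Lin28a reach the 99.6 percentile, while the let-7 peaks lie between 12.6 and 51.2.

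The lists differed in how their peaks were split between the strands. PIPE-CLIP had 87.0% of its clusters on the minus strand, against 50.2% of Piranha, 48.5% of stranded Pyicoclip and 39.1% of CIMS peaks. A PIPE-CLIP cluster was present in 12.2% of protein-coding genes on the minus strand and 1.98% of those on the plus strand, while for Pyicoclip the shares were 4.51% and 4.56%. Over all 21900 protein-coding genes the share with a peak was 7.12% in PIPE-CLIP, 4.54% in Pyicoclip, 2.89% in Piranha, 0.279% in CIMS and 9.77% in any list. Lin28a and Trim71 are minus-strand genes and all stranded Igf2bp1 peaks were on that strand. Their PIPE-CLIP clusters thus lay on the strand that holds most clusters of this list. Whether this skew enters the counts was not tested. Without PIPE-CLIP, 6 peaks were counted in Lin28a, 4 in Trim71 and 5 in Igf2bp1.

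Beyond the members, 63 genes of the circuit were listed, members included, and 22 held a peak. The lists were chosen with earlier results of these data known, so their shares are a description and were not tested. Among protein-coding genes other than the members, 13 of 42 did, all of them in PIPE-CLIP, 5 also in Pyicoclip, 2 in Piranha and none in CIMS. Without peaks that lie in a microRNA gene, which removes Nr6a1 from both, the counts were 4 in Pyicoclip and 1 in Piranha. By gene strand, the 13 genes were 11 of 18 on the minus strand, 0 of 16 on the plus strand and 2 of 8 of strand not given in the tables. Over all protein-coding genes, 9.77% held a peak in any list. A PIPE-CLIP cluster was present in 12.2% of those on the minus strand and 1.98% of those on the plus strand. Whether PIPE-CLIP reports the plus strand as fully as the minus strand is not stated in the sources used here, so a plus-strand gene without a cluster cannot be read as a gene without AGO2.

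Of the genes for let-7 processing other than Lin28a, 5 of 15 held a peak, where the share over all protein-coding genes was 9.77%. As this list was chosen with earlier results known, the difference is not evidence of enrichment. For 3 of the 5, the peaks came from PIPE-CLIP alone, the list skewed to the minus strand. Ddx5, an RNA helicase of the Microprocessor complex, had 5 Pyicoclip, 3 PIPE-CLIP and 1 Piranha peaks, and 4 of the Pyicoclip intervals were nested at the same start. Khsrp, a KH-domain protein that promotes let-7 maturation, had a PIPE-CLIP cluster of score 46 and a Pyicoclip peak of score 10 at the same place. Lin28b, the paralogue of Lin28a, had 2 PIPE-CLIP clusters of scores 12 and 15, against 133 and 144 at the top sites of Lin28a. The Lin28b clusters lay at chr10:45417836-45417897 and chr10:45460659-45460742 in the minus-strand span chr10:45376617-45486314, away from its 3′ end. Dicer1, the nuclease that cuts the let-7 precursor and itself a let-7 target, had 2 clusters, of scores 31 and 11. Ddx17, a relative of Ddx5, had 2 clusters, of scores 20 and 13. No peak was listed in Drosha, Dgcr8, Xpo5, Tut4, Tut7 or Dis3l2.

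Of the let-7 targets other than the members, 10 of 29 held a peak, Lin28b and Dicer1 being in both lists. The share over all protein-coding genes was 9.77%, and for 7 of the 10 the peaks came from PIPE-CLIP alone. The same limit on the choice of the list holds here. None of these targets had as many peaks as Igf2bp1. The paralogues Igf2bp2 and Igf2bp3 had 1 PIPE-CLIP cluster each, of scores 11 and 28, where Igf2bp1 had 16. Mycn, a proto-oncogene, had 2 PIPE-CLIP clusters of scores 22 and 11 and a Pyicoclip peak of score 10 at the first. Hmga2, a chromatin protein gene and a classical let-7 target, had 1 cluster of score 13, and Ccnd2, the gene of cyclin D2, had 3 clusters of scores 11 to 15. Fign, the gene of the AAA protein fidgetin, had 2 clusters, of scores 10 and 11. Not all clusters of these targets lay near the 3′ end of the span. On the minus strand, that of Hmga2 lay at chr10:120430273-120430311 in the span chr10:120361268-120476469. That of Igf2bp2 lay at chr16:22112719-22112784 in chr16:22059009-22163299, and the Fign cluster of score 11 at chr2:64052509-64052589 in chr2:63971508-64098038. The other Fign cluster and those of Igf2bp3 and Mycn lay nearer to the 3′ end.

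Nr6a1, a nuclear receptor gene, had 11 peaks, but 6 of them lay in Mir181a-2 and Mir181b-2 within its span. Those on a strand were on the plus strand, opposite to Nr6a1. The remaining 5 were minus-strand PIPE-CLIP clusters, of which 4 lay near the 3′ end at chr2:38723563-38726398. No peak was listed in Myc, Nras, Hras, Arid3a, Arid3b, Ccnd1, Cdk6, Hmga1 or Igf1r.

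**Figure D4:**
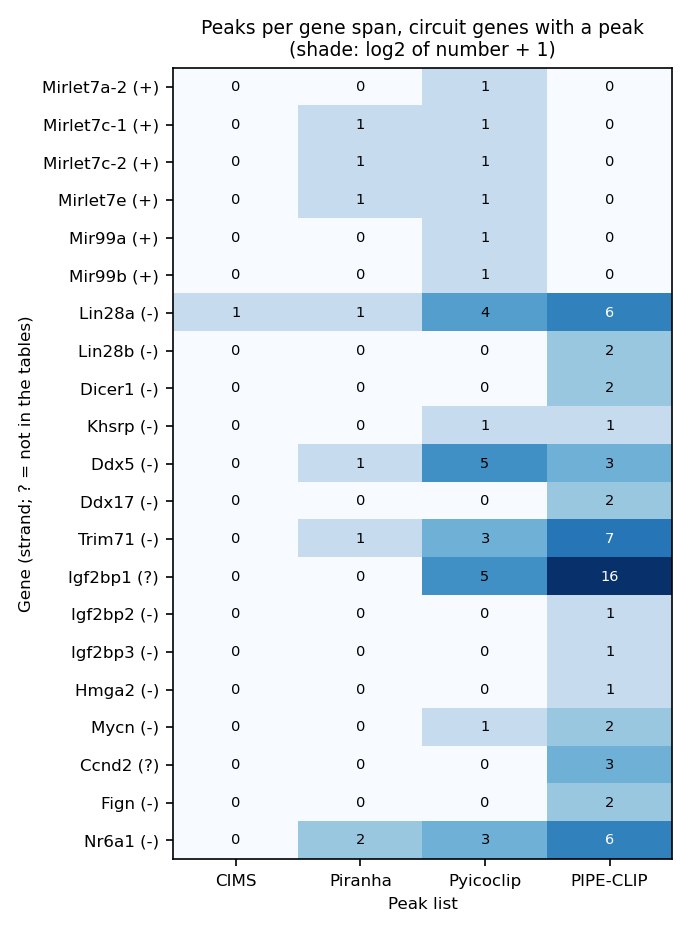
Number of peaks in each list, printed in the cells and shaded on a log2 scale, for the circuit genes with a peak, 1 of the 22 left out; the strand of each gene stands beside its name. Igf2bp1 has 16 PIPE-CLIP clusters, Lin28a alone has a CIMS peak, and no protein-coding gene shown is recorded on the plus strand. The strand of Igf2bp1 and of Ccnd2 is not given in the tables used.

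By peak counts over the 4 lists, the protein-coding genes nearest to Lin28a were Rlim and Skil, at a Euclidean distance of 1.41. Rlim, a ubiquitin ligase gene, had 1 Piranha, 3 Pyicoclip and 6 PIPE-CLIP peaks, and Skil, a corepressor of TGF-beta signalling, had 4 Pyicoclip and 6 PIPE-CLIP peaks. Bhlhe41, Npepps and Nr6a1 followed at 1.73, a distance that Rora, Trim71 and Zc3h12c shared. Nr6a1 stood there only through its microRNA peaks. Without them it had 5 PIPE-CLIP clusters and no other peak, its distance was 4.36 and its rank 124, while the other genes named here kept their distances. None of these had a CIMS peak. Counts over 4 lists of the same libraries are few points, and the likeness is one of counts only.

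Markers of the labelled cell type gave no usable check, since a peak shows only RNA recovered with AGO2 and the shares were near the 9.77% of all protein-coding genes or rest on few genes. Of 13 pluripotent cell markers, 1 held a peak (7.69%), Pou5f1 with a PIPE-CLIP cluster of score 19. No peak was listed in Sox2, Nanog or Sall4, among the other 12. Of 5 neural markers, Map2 held 1 cluster of score 10, on the strand opposite to the gene, and 0 of 4 fibroblast markers held a peak.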

How the data were processed

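AGO2 HITS-CLIP libraries of P19 cells, 3 in 1 group, were analysed from 4 peak lists. Per the submitters' processing notes, reads were handled with cutadapt and Novoalign, with mm10 as the build. Versions, caller settings and how libraries were merged: not given in the sources used here. The score of each peak is the authors' deposited value, of no stated unit, and served to rank or filter peaks inside its own list. Starts were converted to count from 1.

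Gene spans came from a RefSeq table of GRCm38.p6, with mm10 coordinates. Strands came from RefSeq promoter and microRNA tables, which gave one for 17492 of 21900 protein-coding genes. Sites are runs of member peaks overlapping by at least 1 nt, strand ignored. Shares have 95% Wilson intervals, for counting error only. Genes named were the members, circuit genes with peaks in at least 2 lists, microRNA genes within 10 kb of a let-7 member and the 5 genes nearest to Lin28a in peak counts. Others were named after their values were seen. The values of 1 further circuit gene, which the counts include, are not reported here. Members and lists were chosen with earlier results of these data known. No test was made, since peaks chose the members. Assignment and merging were tested on simulated data. Alternatives covered the assignment, strand, score, overlap, PIPE-CLIP and, added after seeing the data, peaks in small RNA genes. Python 3.11.15, numpy 2.4.6, pandas 2.3.3, scipy 1.17.1 and matplotlib 3.10.9 were used.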

Additional observations from a re-analysis of the deposited data

How the results depend on the processing

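With scores of at least 20 only, the members held 22 peaks in place of 50, 3 members in place of 6 held a peak (no let-7 gene), 3 sites in place of 15 were shared between lists, and 10 circuit genes in place of 22 held a peak. Without PIPE-CLIP, the members held 21 peaks, 14 circuit genes held a peak, and 86.7% of the mRNA peaks lay in the last 10% of the span, against 75%. For the peak count and the position, this setting was chosen after seeing the data. The other 14 alternative values moved by no more than a factor of 1.5 or stayed within the interval of the main value. Among them, 50% overlap of the shorter peak left 13 shared sites, and counting the arm with most bases put 6 of 6 let-7 peaks on the 5p arm in place of 4. Leaving out replicates could not be done, since no list gives a value per library. No paired analysis was possible because the libraries form 1 group. The depth behind each peak is unknown, and peaks with scores below 10 are not analysed here, so a gene without a peak is not shown to be unbound.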

Other observations

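The miR-99 strands beside the let-7 members had peaks placed like those of let-7. The Pyicoclip peak of Mir99a began 1 nt before miR-99a-5p and ended 5 nt after it, and that of Mir99b began 2 nt before miR-99b-5p and ended 3 nt after it. Both covered all 22 nt of the mature strand.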
